A study of Triticum aestivum with 122 samples.

Results

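The floret-enriched genes of wheat heads are the 150 entries, of 30140 with a mean of at least 20 normalized counts, that were chosen by the largest excess of the floret over the rachis of the same plant. For each plant the difference floret minus rachis was taken as log2(normalized count + 1), and the entries were ranked by the median over 56 plants. Membership therefore follows from this difference itself, and its size is given below as a description, without a test.

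Poly(A) RNA was sequenced from unemerged heads of the bread wheat cultivar Vida (Triticum aestivum). For 48 h of germination the seeds lay in 1 µM 2,4-epibrassinolide (EBR), a brassinosteroid, or in 1 µM dimethyl sulfoxide (DMSO), the control. All plants grew at 22 °C with a photoperiod of 16 h, and at the tetrad stage some pots of each seed treatment were moved to continuous 29 °C. Heads were taken at 0, 8, 16 and 24 h from pots assigned to 29 °C and to 22 °C, and every head was divided into floret and rachis. The 0 h heads of pots assigned to 29 °C had not yet been heated. Tissue, seed treatment, time and temperature define 32 groups, which held 4 libraries in 26 cases, 3 in 5 cases and 2 in 1 case (rachis, EBR seed, 22 °C, 8 h). Each replicate was 1 plant of a single cultivar, and the dissected tissues hold several cell types each.

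The floret is the reproductive unit of the grass flower head, with stamens, carpel, lodicules and the enclosing lemma and palea. The rachis is the axis that bears the spikelets and supplies them through its vascular strands. At the tetrad stage meiosis in the anthers has just ended, and the tapetum, the inner anther layer, feeds the young microspores; this stage is known for its sensitivity to heat in cereals. Brassinosteroids are plant steroid hormones that bind a receptor kinase at the cell surface and act on growth, fertility and stress responses. None of these roles can be assigned to a member here. The files do not pair their IDs with names, and 0 IDs matched the 155467 entries of the name table, so the tissue labels could not be set against known floret or rachis genes either. The part of an ID before the G gives the chromosome. In a dissected tissue, fewer cells that make a transcript and less of it per cell cannot be told apart.

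Whole reads per library numbered 14.5 to 21.8 M in 61 floret libraries (median 17.4 M) and 10.6 to 18.2 M in 60 rachis libraries (median 14.7 M), counted over the listed entries of chromosomes 1 to 5. In 3 plants the libraries went against their tissue labels. These were replicate 3 of EBR seed at 22 °C and 16 h, replicate 1 of DMSO seed in pots assigned to 29 °C at 0 h, and replicate 1 of DMSO seed at 22 °C and 0 h. In these plants only 6, 15 and 11 of the 150 members were higher in the library labelled floret, and the median differences were -2.99, -1.88 and -1.50. Of the 150 entries at the other end of the ranking, the rachis-enriched ones, 150, 146 and 128 were higher in the library labelled floret, against at most 28 in any of the 56 other plants. The rule left these plants out. The tests below include them as labelled, and results that rest on them are given with and without them.

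Across the 56 plants the members were a median 3.83-fold higher in the floret than in the rachis (median difference 1.94 on the log2 scale). The difference was 3.11 for the first member, TraesCS4A03G0052800.1, and 1.7497 for the last, TraesCS1D03G0134500.1. The next entry, TraesCS4A03G0842100.1, stood just outside at 1.7477, so the boundary is arbitrary. Over all 30140 entries the median difference was 0.01 and the 1st and 99th percentiles were -2.16 and 1.45. The rachis end was longer than the floret end, since 739 entries exceeded the last member's difference in the opposite direction and the lowest lay at -4.77.

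Few members were restricted to the floret. Only 17 of the 150 were higher in the floret of all 56 plants, and the median member was higher in 54. The lower quartile over floret libraries lay above the upper quartile over rachis libraries in 108 members, and 45 had a rachis median under 10 normalized counts. The first member, TraesCS4A03G0052800.1, ranged from 9.67 to 64.3 normalized counts over 58 floret libraries (median 34.6) and from 0 to 31.4 over 57 rachis libraries (median 3.51). It was a gene of low level in both tissues, with a steady floret level. TraesCS4D03G0590000.1, ranked 4, was the only member whose tissues did not overlap at all; it was singled out after its values were seen. It ranged from 146.5 to 525.2 in floret libraries (median 250.4) and from 3.70 to 138.0 in rachis libraries (median 42.8).

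The plants differed in how strongly the members separated the tissues. The median difference over the members ranged from 0.30 to 3.82 between plants, with a median of 1.95, and at least 100 members were higher in the floret of 54 of the 56 plants. The exceptions were replicate 3 of DMSO seed after 24 h at 29 °C (83 members higher, median difference 0.30) and replicate 2 of DMSO seed at 22 °C and 0 h (92 members higher, 0.31). In both plants the rachis-enriched entries kept their side, with median differences of -2.98 and -1.64. Of 3 libraries without a partner, the floret libraries of EBR seed at 22 °C, replicate 1 at 8 h and replicate 4 at 16 h, had 128 and 149 members above the rachis median. The rachis library of DMSO seed in pots assigned to 29 °C, 0 h, replicate 4, had 140 members below the floret median.

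**Figure D1:**
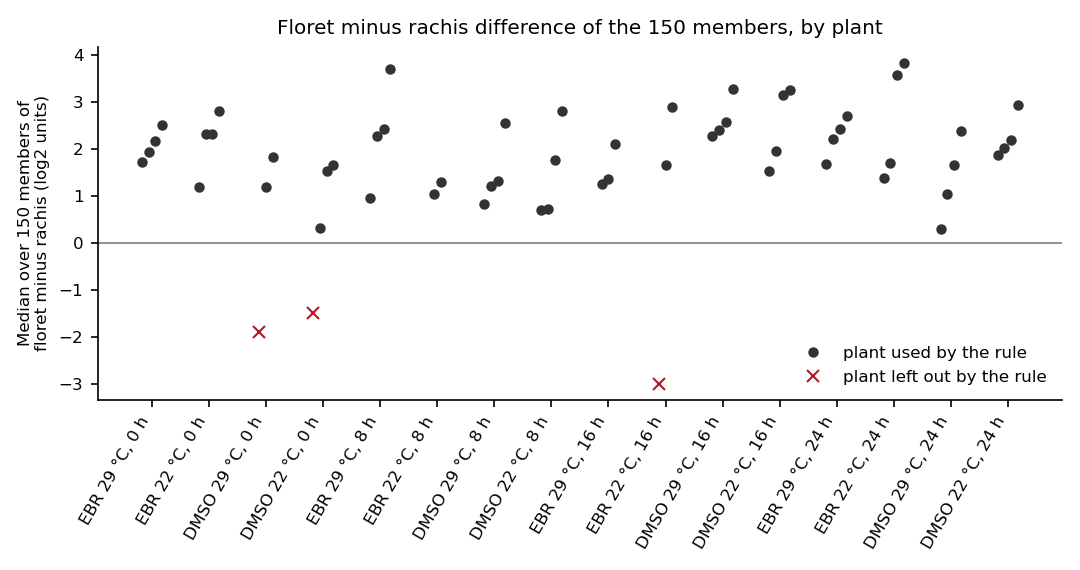
Each symbol is a plant, plotted as the median over the 150 members of floret minus rachis (log2 units) for the 16 combinations of seed treatment, temperature and time. The 56 plants used by the rule lie between 0.30 and 3.82, and the 3 plants left out by the rule (crosses) lie between -2.99 and -1.50.

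The members were not a single programme. Grouped after their values were seen, by how they moved together over the 58 floret libraries, they formed a tight set A of 22 members, a larger set B of 70, a looser set C of 46 and a small set D of 7, with 5 members in none of them. The median pairwise Pearson r was 0.98 in set A, 0.77 in set B, 0.58 in set C and 0.38 in set D. The means of sets B and C were weakly opposed over libraries (r = -0.19) and so were their deviations within groups (r = -0.34). These libraries share heads, depth and scaling steps, so the correlations are descriptions and carry no test. Members of a set were grouped for moving together, so a shared direction within a set below follows in part from the grouping.

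**Figure D2:**
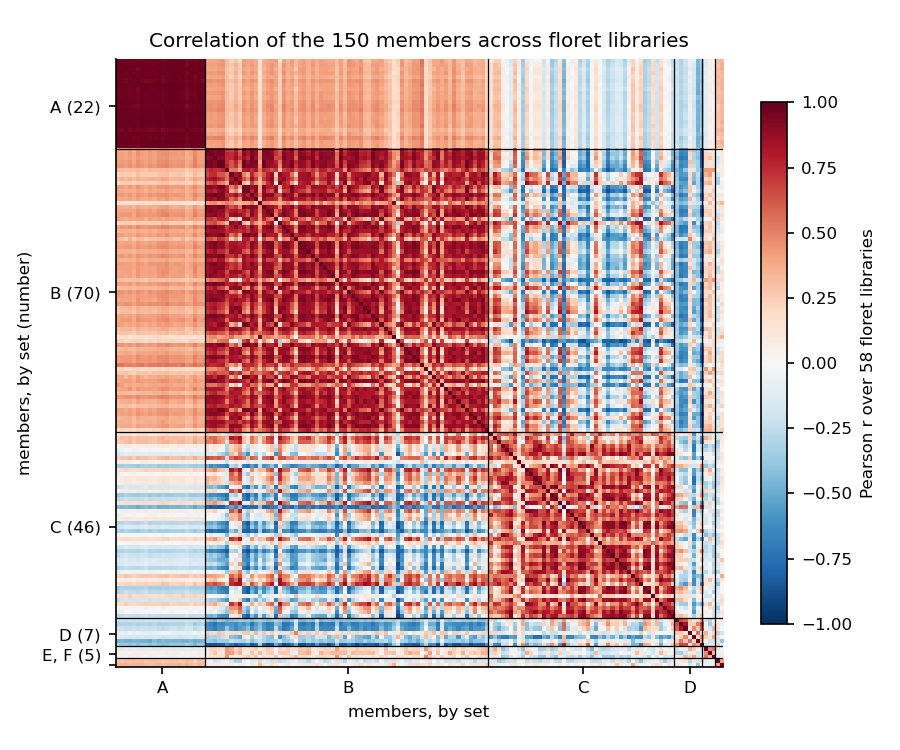
Pearson correlation between each pair of the 150 members over 58 floret libraries, ordered by set, with the number of members per set at the left. Set A (22 members) is a solid block with a median r of 0.98, and sets B and C are separate blocks with medians of 0.77 and 0.58.

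Set A held members of 6 chromosomes and was clustered in position only in part. Of its 22 members 13 lay on chromosome 1A with ID numbers from 200 to 3200, which is the start of that chromosome's numbering; 26 entries are listed below number 10000 there and 21 of them reach the mean of 20. Of all members 16.7% lay on 1A, against 5.90% of all ranked entries; outside set A it was 12 of 128 members (9.38%). Set A also held neighbours on 5A (3 members), 4D (2) and 5D (2). How reads that match several near-identical copies were counted is not stated in the labels or notes, so the values of these neighbours are uncertain as separate measurements. Outside set A, 30 of 128 members lay in 11 runs of neighbouring IDs (at most 1000 apart), and 9 of the runs belonged to a single set. The share of members on subgenome A was 36.7%, on B 28.7% and on D 34.7%, against 34.0%, 33.6% and 32.5% of all ranked entries.

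The floret level of set A differed widely between conditions, with some plants in between. TraesCS4D03G0555100.1, the second member in the ranking, had 84.3, 131.0, 79.6 and 117 normalized counts in the floret of EBR heads after 24 h at 29 °C, against 4.08, 5.63, 5.35 and 6.25 in EBR heads kept at 22 °C. Rachis levels of the same plants were 1.06, 7.46, 4.88 and 9.25 at 29 °C, against 8.19, 1.82, 3.06 and 1.95 at 22 °C. The floret levels of the 2 temperatures did not overlap, and the rachis levels did.

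The sign of this contrast changed with time. For TraesCS1A03G0001400.1, in the 1A run, the floret of EBR heads after 8 h had 18.9, 15.3, 18.9 and 7.0 normalized counts at 29 °C, against 670.6, 572.7 and 389.3 at 22 °C. Here the heated heads were the low ones. After DMSO seed at 8 h the values were 230.6, 18.3, 16.7 and 140 at 29 °C, against 941.6, 307, 371.6 and 242.7 at 22 °C, so that 2 heated heads were low and 2 lay between.

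Before any heating the difference lay between seed treatments. At 0 h TraesCS1A03G0001400.1 had 423, 661, 636 and 275 normalized counts in the floret of EBR heads assigned to 29 °C and 392, 342, 94.4 and 330 in EBR heads assigned to 22 °C. DMSO heads had 13.9, 21.7 and 55.4 where assigned to 29 °C and 10.5, 15.2, 14.5 and 20.9 where assigned to 22 °C. The first value of each DMSO group comes from a plant whose libraries go against their labels, and the other 5 values lay between 14.5 and 55.4.

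Set A followed the number that the library names give to each condition. On the mean log2(normalized count + 1) scale, the 27 floret libraries of conditions 10 to 16 lay between 5.78 and 9.03 (median 7.97), and the 31 of conditions 1 to 9 between 3.40 and 7.24 (median 4.11). Only 3 of the 31 lay above the lowest of the 27. Conditions 10 to 16 are EBR at 0 h (both pot groups), EBR at 8 h and 22 °C, EBR at 24 h and 29 °C, DMSO at 16 h (both temperatures), and DMSO at 8 h and 22 °C. Each number is 1 condition, and the labels do not say what the numbering stands for. An effect of treatment, temperature or time on set A and any feature that runs with this numbering cannot be told apart.

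In the rachis set A was at a low level in nearly every library. Only 2 of 57 rachis libraries had a mean above 6, namely EBR seed at 22 °C and 16 h, replicate 1 (8.45), and DMSO seed at 22 °C and 0 h, replicate 2 (7.85), and the next lay at 4.97. The florets of the same plants had means of 3.78 and 4.80. In these 2 plants the set was thus higher in the rachis. The library labelled rachis of replicate 1 of DMSO seed at 22 °C and 0 h, left out by the rule, stood at 7.37.

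**Figure D3:**
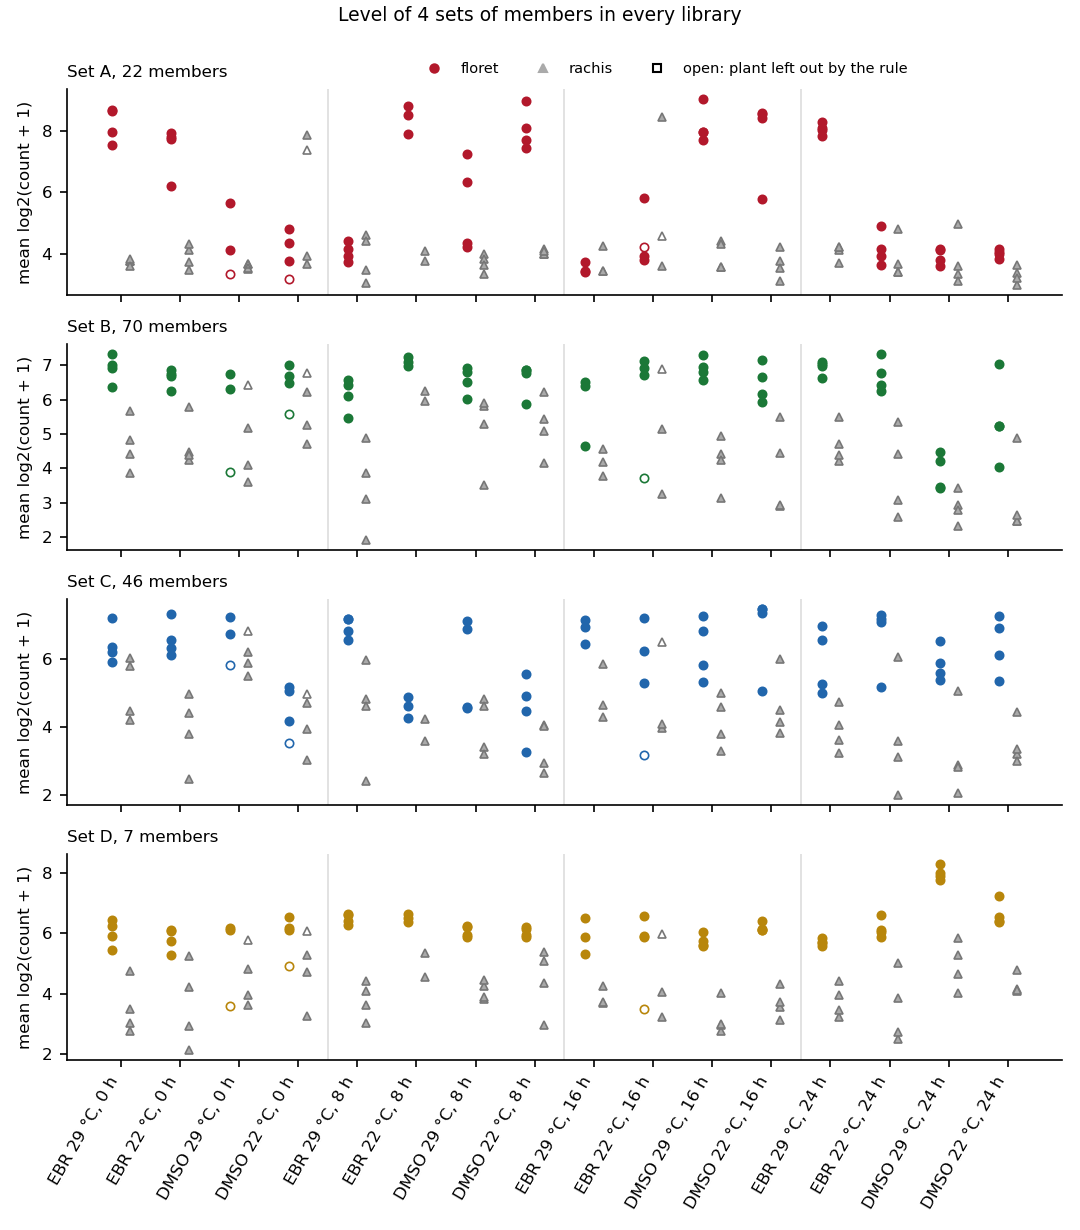
Mean log2(normalized count + 1) of sets A, B, C and D in every library (floret circles, rachis triangles) by condition; open symbols are plants left out by the rule. Set A is split into high and low conditions in the floret, set B is lowest in DMSO heads at 24 h, set C is low at 22 °C and 8 h, and set D is highest in DMSO heads after 24 h at 29 °C.

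Heat was tested in the floret as 29 °C minus 22 °C at each time after each seed treatment, with limma over all 61 floret libraries, and all 150 members passed its filter on low values. Adjusted p-values are Benjamini-Hochberg values over all 38320 entries tested, an entry was called at an adjusted p under 0.05, and fold changes are on the log2(value + 1) scale. After 8 h in DMSO heads 25 members were called (16.7%), 3 higher and 22 lower, against 4.38% of all entries, of which 1.93% were higher and 2.45% lower. The 22 lower members were the whole of set A, with fold changes of -2.82 to -2.07. Outside set A, 3 of 128 members were called, all higher (2.34%). With only the compared groups fitted, where 146 members passed the filter, 1 member was called and none of set A. Without replicates 2 and 3 there were 3 and 11 members called, of which 1 and 8 were in set A; the cause was not tested.

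The members called outside set A at 8 and 16 h in DMSO heads were a pair of neighbours on chromosome 3B in set B and 1 member of set C. At 8 h the fold changes of set C had a median of 1.13 and were positive in 45 of its 46 members, of which 1 passed the test. TraesCS3B03G0823800.1 had 195, 103, 86.2 and 75.3 normalized counts in the floret after 8 h at 29 °C, against 31.2, 38.3, 10.3 and 1.75 at 22 °C. All heated heads lay above all unheated ones (log2 fold change 2.94, SE 0.573, limma adjusted p = 0.000979). After 16 h it had 47.5, 51.4, 68.9 and 107.9 at 29 °C, against 6.37, 11.7, 9.56 and 15 at 22 °C (2.56, SE 0.573, limma adjusted p = 0.00497). After 24 h the groups overlapped, with 9.40, 12.6, 5.10 and 4.22 at 29 °C and 2.67, 15.9, 4.09 and 3.33 at 22 °C. Its rachis values at 8 h were 36.9, 52.8, 8.29 and 19.6 at 29 °C and 7.08, 5.97, 6.21 and 18.6 at 22 °C, and these groups overlapped. Its call at 8 h was lost in the fit of the compared groups alone (limma adjusted p ranging from 0.000282 to 0.0847 between settings), and the 16 h call ended without replicate 3 (0.00164 to 0.0507).

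Its neighbour TraesCS3B03G0823600.1 had 243, 141, 105 and 94.0 normalized counts after 8 h at 29 °C, against 38.7, 59.1, 14.4 and 21.0 at 22 °C. These groups did not overlap either (log2 fold change 2.19, SE 0.565, limma adjusted p = 0.0152). After 16 h the fold change was 1.94 (SE 0.565, limma adjusted p = 0.0339). Both calls of this gene ended in each run without 1 replicate number (adjusted p up to 0.0821 at 8 h and 0.159 at 16 h). The pair made up both calls among the members at 16 h in DMSO heads (1.33%, both higher), against 5.1% of all entries, of which 2.45% were higher and 2.65% lower. The third member called higher at 8 h was TraesCS2B03G1562900.1 of set C (2.01, SE 0.484, limma adjusted p = 0.00829).

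In EBR heads the pair rose at 24 h. TraesCS3B03G0823800.1 then had 166, 100, 123 and 71.2 normalized counts in the floret at 29 °C, against 21.4, 4.69, 14.3 and 17.0 at 22 °C, with no overlap (log2 fold change 3.02, SE 0.573, limma adjusted p = 0.000575). Its rachis values were 28.6, 18.7, 19.5 and 13.4 at 29 °C, against 3.51, 2.73, 2.04 and 0 at 22 °C. At 8 and 16 h its fold changes in EBR heads were 1.54 and 0.40 (limma adjusted p = 0.0527 and 0.736). Its response to heat differed between EBR and DMSO heads (limma F test over the 3 times, adjusted p = 0.00672); that of TraesCS3B03G0823600.1 did not pass (adjusted p = 0.116).

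**Figure D4:**
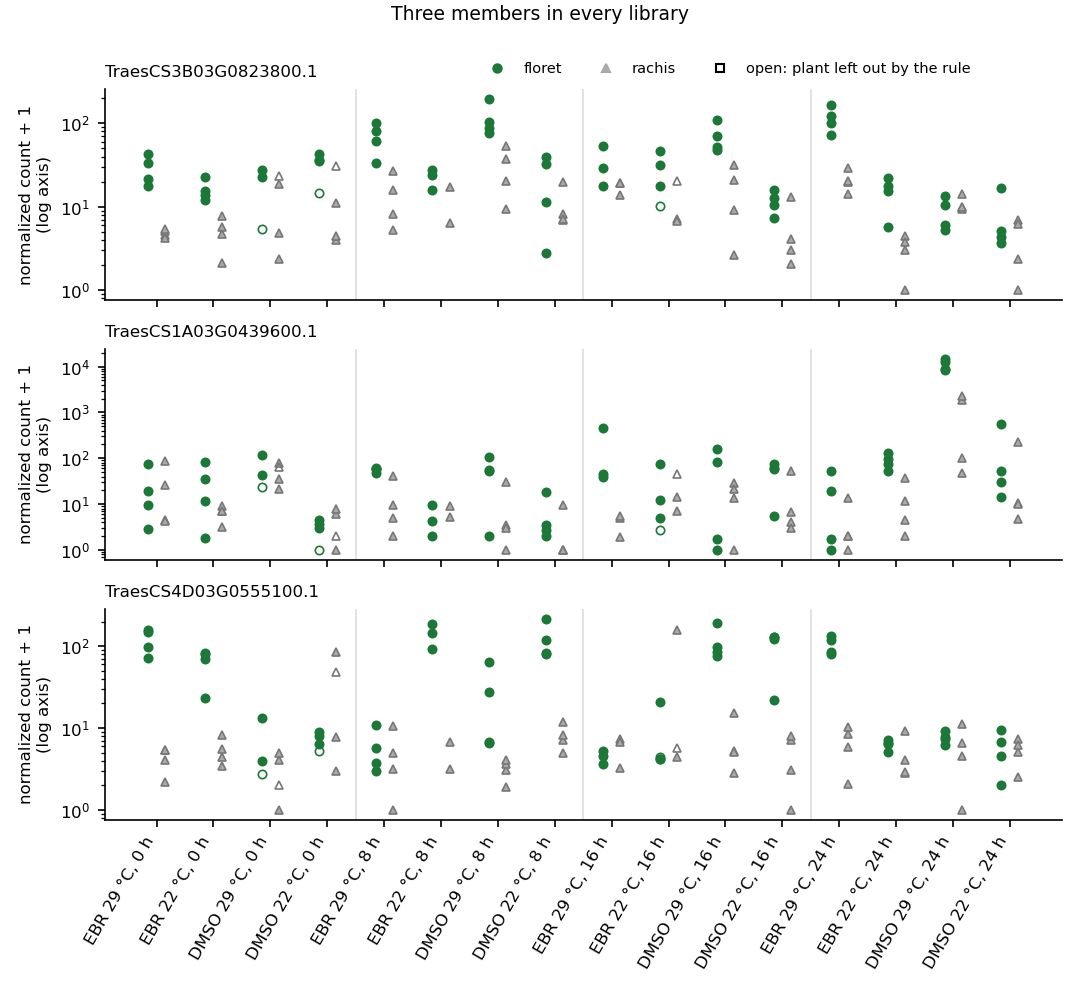
Normalized count + 1 (log axis) of 3 members in every library, floret circles and rachis triangles, by condition; open symbols are plants left out by the rule. TraesCS3B03G0823800.1 is high at 29 °C at 8 and 16 h after DMSO seed and at 24 h after EBR seed, TraesCS1A03G0439600.1 reaches 8498 to 14638 in the floret of DMSO heads after 24 h at 29 °C, and TraesCS4D03G0555100.1 of set A is high or low by condition, with values between in DMSO heads after 8 h at 29 °C.

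After 24 h of heat in DMSO heads most of the called members were lower. Of the 150, 50 were lower and 4 higher at 29 °C, 36.0% in all, against 38.5% of all entries, of which 17.6% were lower and 21.0% higher. The share called was thus near that of all entries, while the direction was not: the median member changed by -0.89 and the median entry by 0.05. Of the 50 lower members 38 were in set B, whose mean was 3.88 ± 0.53 at 29 °C and 5.38 ± 1.23 at 22 °C on the log2 scale (SD, n = 4 each), and 12 were in set C. No member of set A was called, and that set was low at both temperatures. The count fell to 20 without replicate 2 and 33 without replicate 4, and was 68 without replicate 1.

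TraesCS3D03G0939700.1 of set B had 7.69, 8.39, 0 and 2.11 normalized counts in the floret at 29 °C and 24 h, against 8.91, 206, 27.6 and 35.0 at 22 °C. Replicate 1 at 22 °C lay close to the heated heads (log2 fold change -3.26, SE 0.740, limma adjusted p = 4.60e-04). TraesCS3A03G1009200.1 of set B had 13.7, 9.44, 2.04 and 5.27 at 29 °C, against 20.5, 169, 48.0 and 39.9 at 22 °C (-2.82, SE 0.576, limma adjusted p = 1.16e-04). In EBR heads at 24 h TraesCS3D03G0939700.1 had overlapping groups, with 135, 156, 197 and 48.4 at 29 °C and 206, 56.3, 80.2 and 99 at 22 °C. The heat response differed between the seed treatments for both genes (limma F test, adjusted p = 0.0213 and 0.0190).

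Of the 4 members that rose at 24 h in DMSO heads, 2 lay far above their levels in every other condition. TraesCS1A03G0439600.1 of set C had 12615, 8498, 8738 and 14638 normalized counts in the floret at 29 °C, against 549, 13.1, 52.1 and 29.1 at 22 °C. Every heated head lay far above the highest unheated one (log2 fold change 7.51, SE 1.34, limma adjusted p = 1.57e-05). Its rachis values were 1826, 98.2, 46.8 and 2236 at 29 °C, against 225, 3.87, 9.54 and 9.04 at 22 °C. In EBR heads at 24 h the floret had 18.4, 0.775, 0 and 51.0 at 29 °C, against 52.0, 130.4, 74.9 and 97.3 at 22 °C, a difference that did not pass the test (-3.71, limma adjusted p = 0.0990).

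TraesCS4D03G0811800.1 of set D had 517, 352, 280.4 and 557 normalized counts in the floret of DMSO heads after 24 h at 29 °C, against 39.2, 1.87, 18.4 and 29.1 at 22 °C (log2 fold change 4.68, SE 0.657, limma adjusted p = 2.11e-07). The groups were far apart. In EBR heads at 24 h it stayed between 1.55 and 3.79 at 29 °C, against 2.67 to 8.16 at 22 °C. TraesCS1A03G0439600.1 and TraesCS4D03G0811800.1 had the smallest p-values of the EBR by heat F test among the members (limma adjusted p = 1.24e-04 and 2.04e-04). For neither did the tissue by heat test pass in DMSO heads (limma adjusted p = 0.999 and 0.975). That test takes the mean over all times of heating, so it cannot decide about 24 h alone.

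After 8 h in EBR heads 69 members were called (46%), 29 higher and 40 lower, against 30.2% of all entries, of which 15.5% were higher and 14.6% lower. All 22 members of set A were lower, with fold changes of -5.14 to -3.96. Outside set A, 47 of 128 members were called (36.7%), nearer the share of all entries. In set B 17 of 70 were lower and none higher, and in set C 28 of 46 were higher and none lower; in set D 1 was higher and 1 lower. Set C had a mean of 6.94 ± 0.30 at 29 °C (SD, n = 4) and of 4.59 ± 0.31 at 22 °C (SD, n = 3). The count was 84 without the 3 plants, and 40 and 36 without replicates 1 and 2. The shares of all entries in those fits are not given here.

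For single genes of set C the level at 22 °C was near 0. TraesCS2A03G1050200.1 had 134.3, 154, 158 and 150.1 normalized counts in the floret of EBR heads after 8 h at 29 °C, against 1.04, 0 and 0 at 22 °C (limma adjusted p = 9.65e-04). The 22 °C values are 1 read or none, so no fold change is given. In DMSO heads at 8 h it had 1.07, 147, 2.78 and 161 at 29 °C, against 0, 4.16, 1.03 and 1.75 at 22 °C, so that it was on in 2 of the heated heads and off in the other 2. TraesCS4D03G0032400.1 of the same set had 76.6, 138, 101 and 80.1 in the floret of EBR heads after 8 h at 29 °C, against 1.04, 0 and 0.806 at 22 °C.

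Under heat at 16 and 24 h in EBR heads few members outside set A changed. At 16 h 2 members were called, both higher (1.33%), against 6.51% of all entries, of which 3.12% were higher and 3.39% lower. TraesCS2B03G1562900.1 of set C had 53.6, 53.5 and 59.3 normalized counts at 29 °C, against 11.3, 42.1, 4.24 and 14.7 at 22 °C, where 4.24 comes from the library labelled floret of a plant that goes against its labels. Without the 3 plants this call and the other ended, and 6 other members were called, all lower. The share of all entries without those plants is not given here. At 24 h 24 members were higher and 0 lower (16.0%), against 4.9% of all entries, of which 2.31% were higher and 2.59% lower: all 22 of set A, with fold changes of 2.85 to 4.70, and the pair on 3B. At an unadjusted limma p under 0.05 28 members passed in either direction, and edgeR called 25 higher and 0 lower.

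**Figure D5:**
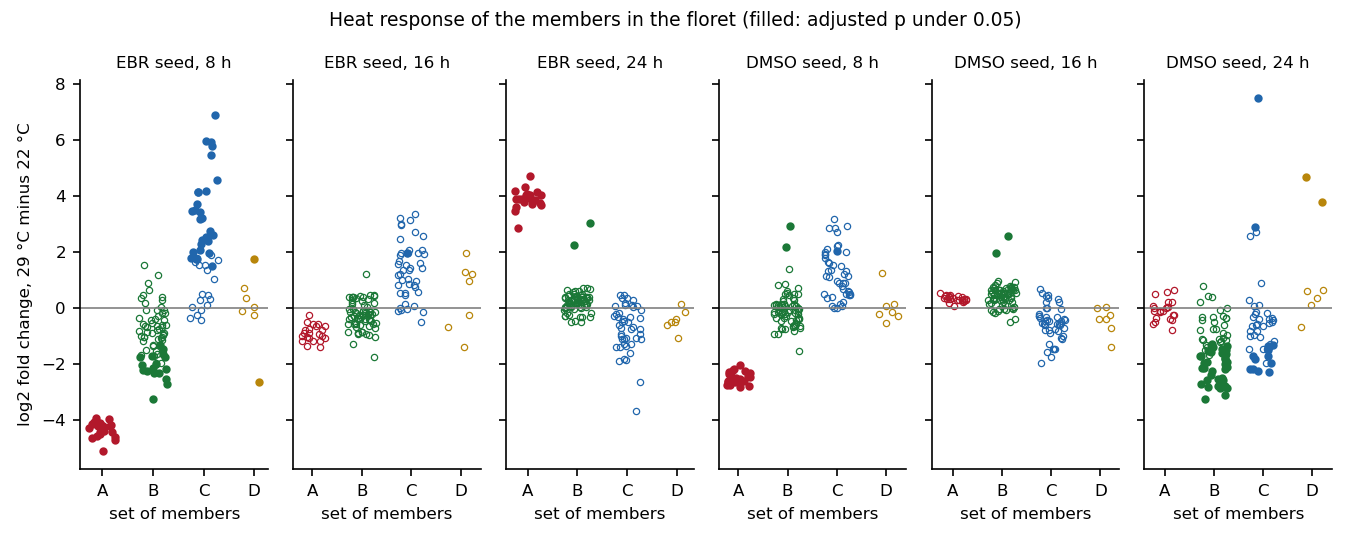
Log2 fold change (29 °C minus 22 °C) of each member in the floret by set, for EBR and DMSO seed at 8, 16 and 24 h; filled points have an adjusted p under 0.05. Set A lies below 0 at 8 h in both seed treatments and above 0 at 24 h after EBR seed, set C rises at 8 h after EBR seed, and set B falls at 24 h after DMSO seed.

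The EBR by heat F test over 8, 16 and 24 h called 41 members (27.3%), against 31.0% of all entries. The 41 were 22 of set A, 11 of set B, 5 of set C and 3 of set D. Outside set A it called 19 of 128 members (14.8%), a smaller share than that of all entries in this fit, which includes the 3 plants. Without the 3 plants 77 were called, of which 55 were outside set A (43.0% of 128). The share of all entries without them is not given here, so the smaller share is stated only for the fit with all libraries. Without replicates 2 and 3 there were 21 and 25 members called. Each of the 22 in set A was called at 8 h in both seed treatments and at 24 h in EBR heads, and the groups of those comparisons lie on either side of the numbering described above.

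The seed treatment itself was tested as EBR minus DMSO. At 0 h 22 members were called, all higher in EBR heads and all of set A (14.7%), against 0.483% of all entries, of which 0.394% were higher and 0.0887% lower. The fold changes were 2.90 to 4.14. Outside set A 0 of 128 members were called by limma and 0 of 150 were lower; 66 members had an unadjusted p under 0.05, set A included, and edgeR called the same number, 22. The median member differed by 0.90 with all libraries and by 0.37 without the 3 plants, 2 of which were DMSO heads at 0 h. Set A remained called in full without them.

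Over the means of 8, 16 and 24 h at 22 °C limma called 0 members (38 at an unadjusted p under 0.05) and edgeR 0, against 1.04% of all entries, of which 0.491% were higher and 0.553% lower. Without the 3 plants limma called 26, of which 18 in set B were higher and 8 in set A lower in EBR heads. Without replicate 4 it called 17. The 1.04% belongs to the fit with all libraries, and the shares of all entries in these 2 fits are not given here. At 29 °C limma called 3 members (2.00%), against 4.2% of all entries, of which 0.932% were higher and 3.26% lower. They were TraesCS2B03G0510000.1 of set B, higher in EBR heads (1.18, limma adjusted p = 0.0331), and TraesCS4D03G0811800.1 and TraesCS4B03G0925800.1 of set D, lower (-1.95 and -1.74, adjusted p = 9.56e-04 and 0.0380). The count was 18 without the 3 plants and 18 without replicate 3, where the shares of all entries are likewise not given.

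At 22 °C the calls for time were spread unevenly over the sets, which were themselves grouped on these libraries. The F test over 0, 8, 16 and 24 h called 66 members (44.0%), against 31.9% of all entries: 22 of set A, 28 of set C, 15 of set B and 1 outside the 4 sets. Outside set A it called 44 of 128 members (34.4%), near the share of all entries. The test called 43 members without replicate 4. Without the 3 plants that go against their labels it called 96, of which 74 were outside set A. The share of all entries in that fit is not given here. The set C means below leave out those plants, unlike the 66 calls. In DMSO heads at 22 °C the floret mean of set C was 4.81 ± 0.55 at 0 h (SD, n = 3), 4.56 ± 0.97 at 8 h, 6.85 ± 1.19 at 16 h and 6.42 ± 0.85 at 24 h (SD, n = 4 each). In EBR heads at 22 °C it was 6.59 ± 0.53 at 0 h (SD, n = 4), 4.59 ± 0.31 at 8 h (SD, n = 3), 6.25 ± 0.96 at 16 h (SD, n = 3) and 6.69 ± 1.00 at 24 h (SD, n = 4). Both seed treatments were thus low at 8 h. In DMSO heads at 0 h the pots assigned to 29 °C, not yet heated, already had 6.99 ± 0.36 (SD, n = 2), against 4.81 ± 0.55 in those assigned to 22 °C (SD, n = 3). These unheated groups were not compared by a test.

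Members varied between plants of the same group far more than most genes did. The within-group SD over floret libraries was 0.79 for the median member and 0.23 for the median entry on the log2 scale, and 111 of 150 members lay above the 90th percentile of all entries. In sets B and C part of this ran along the main axis of variation between heads of a group. The axis, computed without the members, held 37.8% of that variation in 29990 entries (the next held 9.22%). The median r with this axis was -0.61 in set B, where 45 of 70 members were below -0.5, and 0.62 in set C, where 27 of 46 were above 0.5. It was 0.26 in set A and 0.17 in set D, where 0 members lay beyond 0.5 in either direction. The within-group SD was 0.82 in set A, 0.71 in set B and 0.93 in set C. Of all entries 41.2% had an r beyond 0.5 in either direction. The part of this axis in the heat and time differences of sets B and C was not tested.

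The floret minus rachis difference of the members did not pass a test for change with heat, taken as the mean of 8, 16 and 24 h. Changes of opposite sign at different times can cancel in this mean. In the floret of EBR heads the median fold change of set A was -4.23, -0.93 and 3.91 at these times. The test therefore cannot decide about any single time. The main fit did not pair the tissues of a plant. In DMSO heads limma called 0 of the 150 members for tissue by heat (7 at an unadjusted p under 0.05) and edgeR 0, against 0.153% of 40613 entries, of which 0.096% were higher and 0.0566% lower. In EBR heads limma called 0 members (0 at an unadjusted p under 0.05) and edgeR 0, against 0.0% of the entries. The median difference over members was 1.96 in heated DMSO heads (range 0.30 to 3.26, 12 plants) and 1.98 in unheated ones (0.69 to 3.26, 12 plants). It was 2.20 in heated EBR heads (0.95 to 3.70, 11 plants) and 1.68 in unheated ones (1.04 to 3.82, 8 plants). The ranges overlapped almost in full. The median tissue by heat estimate over the members was 0.56 in EBR heads with the 3 plants as labelled and 0.10 without them, and it was -0.31 in DMSO heads.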

How the data were processed

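The authors deposited a signal per entry and library, named normalized counts, in a single table. Tools listed in the submitters' processing notes, without roles, are Trimmomatic 0.36, STAR, featureCounts, DESeq2, FastQC and MultiQC; the build of the genome is not given there. In every library 100% of the values were whole reads, within 0.01, once a single factor was removed. Of 55578 entries 1 was incomplete and left out. They cover chromosomes 1 to 5, the last in part, and whether the table extends further is not known here. Of 122 samples 121 have a column; the rachis sample of EBR seed, 22 °C, 8 h, replicate 1 entered nothing.

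Values were fitted as log2(value + 1) with limma 3.58.1 (trend, 1 mean per group) in R 4.3.3 over all entries that reached 10 in 3 or more libraries. The whole reads were also tested by quasi-likelihood with edgeR 4.0.16. Tests with a direction were two-sided. The fits were also run on simulated reads drawn independently of each other. That simulation lacks the variation shared between entries in these heads, so it cannot show how the tests behave under it. Among 172 replicate pairs the lowest chi-square per entry was 2.82, so none was a repeat deposit. Replicates are plants, as labelled. Both tissues of a plant are parts of 1 head, and their deviations were correlated (mean r 0.352 over 56 plants, 50 of them over 0.1). The main tissue by heat fit used no block and did not pair the tissues. The plant was the block in an alternative fit of floret minus rachis per plant. The members, sets and lists were chosen with earlier results of these data known. Genes named are the first 3 ranks, the 2 at the boundary, the 2 smallest p of each F test and, per comparison with a direction, up to 2 called rises and 2 falls with the largest fold change, no overlap between the groups and a floret mean of at least 50 in the higher group; fewer are printed, and others were chosen after their values were seen. Counting error alone limits values near 0, where 1 read decides them.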

Additional observations from a re-analysis of the deposited data

Results flagged for a closer look

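In groups of 4 libraries the highest or the lowest was set against the rest of its group, for the mean log2(normalized count + 1) of all members and of each set. Chance alone marks about 1 such comparison in 20, and 11 of 130 were marked. The 130 comparisons are overlapping scores of the same 26 groups. They are not independent, so the 11 cannot be judged against that rate. The library labelled floret of EBR seed, 22 °C, 16 h, replicate 3 was low over all members (3.604, the others 6.02 to 6.47) and in set B (3.715, the others 6.71 to 7.12). The floret library of DMSO seed, 22 °C, 16 h, replicate 4 was low in set A (5.784, the others 8.42 to 8.57) and in set C (5.072, the others 7.36 to 7.49), and replicate 1 of the same group was high in set D (6.403, the others 6.10 to 6.13). Low floret values were 6.186 in set A for EBR seed, 22 °C, 0 h, replicate 3 (the others 7.71 to 7.93), 5.884 in set B for DMSO seed, 22 °C, 8 h, replicate 4 (the others 6.79 to 6.87) and 5.19 in set C for EBR seed, 22 °C, 24 h, replicate 1 (the others 7.10 to 7.29). High rachis values were 5.78 in set B for EBR seed, 22 °C, 0 h, replicate 1 (the others 4.25 to 4.48), 4.891 in set B for DMSO seed, 22 °C, 24 h, replicate 2 (the others 2.45 to 2.65) and 4.768 in set D for DMSO seed, 22 °C, 24 h, replicate 1 (the others 4.08 to 4.16).

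The limma F test of the interaction called 41 members for a difference in heat response between seed treatments (adjusted p under 0.05 over all entries). That is 27.3% of the members, against 31.0% of all entries, and outside set A it is 19 of 128 (14.8%). The count was 77 without the 3 plants that go against their labels and 21 without replicate 2. The shares of all entries in those fits are not given here. For the 22 called members of set A, an effect of treatment and any feature that runs with the condition numbering cannot be told apart.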

How the results depend on the processing

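None of the fold changes recomputed for named genes turned its sign under the alternatives run, but medians over members near 0 did: for heat at 16 h after EBR seed the median outside set A was 0.11 with all libraries and -0.70 without the 3 plants against their labels. Of the 150 members 85 had a mean of at least 50 over all libraries. At that limit these 85 stay selected by construction, so their number does not measure stability. When each replicate number was left out, 130 to 134 members were selected again. Counts of called members moved by over 1.5 times as follows. The shares of all entries in these alternative fits are not given here. With only the compared groups fitted there were 1 for heat at 8 h and 4 for heat at 16 h after DMSO seed, 0 for heat at 16 h after EBR seed and 13 for EBR at 29 °C. With a mean of at least 50 the count was 1 for heat at 16 h after DMSO seed, 0 for heat at 16 h after EBR seed and 1 for EBR at 29 °C. A pseudocount of 5 gave 1 for heat at 16 h after EBR seed. Without the 3 plants against their labels the counts were 6 for heat at 16 h after EBR seed, 77 for EBR by heat, 26 for EBR at 22 °C and 18 for EBR at 29 °C; the cause of these shifts was not tested. Leaving out each replicate number gave 3 to 23, 0 to 1 and 20 to 68 members for heat at 8, 16 and 24 h after DMSO seed, and 36 to 60, 0 to 1 and 23 to 24 after EBR seed. It gave 21 to 51 for EBR by heat, 22 to 29 for EBR at 0 h, 0 to 17 for EBR at 22 °C, 1 to 18 for EBR at 29 °C, 43 to 55 for time at 22 °C and 0 in every run for tissue by heat. Replicate numbers did not pair the libraries of a tissue (mean correlation of same-numbered libraries 0.0036 in the floret and 0.014 in the rachis). With a replicate block the counts were 25, 2 and 53 for heat after DMSO seed, 68, 2 and 24 after EBR seed, 41, 22, 0 and 3 for the tests of EBR, 66 for time and 0 and 0 for tissue by heat with the plant as block, so the block changed no call count by over 1.5 times. Levels near 0 are limited by depth, since 1 read decides them.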
